A study of Mus musculus with 15 samples.

Results

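Fatty acid oxidation was followed here through 40 genes in kidneys of wild-type mice, taken as the rows of the count table whose symbol was on a list of 40, out of 24421 symbols in all. All 40 were in the table, and all 40 passed the filter on low counts that left 16752 genes for testing. By general knowledge of where the proteins work, 22 were placed in mitochondria, 14 in peroxisomes and 4 (Acsl1, Crat, Ech1 and Acad11) in more than one compartment. The mice had sham surgery on normal diet (sham, n = 3), UUO surgery on normal diet (UUO, n = 6) or UUO surgery on a Si-based diet (UUO_Si, n = 6), and were sampled on day 14. UUO, unilateral ureteral obstruction, ties off the outflow of a kidney and leads to tubular injury and fibrosis. There was no sham group on the Si-based diet, so UUO_Si differed from sham in both operation and diet. The strain, age and sex of the mice, the dose of the silicon agent and whether each library is a single animal are not given in the sources used here, so p-values measure the spread between these samples.

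Beta-oxidation shortens a fatty acid chain by repeated rounds of dehydrogenation, hydration, a second dehydrogenation and thiolytic cleavage. Mitochondria import long chains through the carnitine shuttle and pass the electrons through the electron transfer flavoprotein to the respiratory chain. Peroxisomes take up very-long-chain and branched substrates through ABC transporters, use oxidases that make hydrogen peroxide in the first step, and hand the shortened chains on as carnitine esters. Proximal tubule cells, which make up much of the cortex, draw most of their energy from fatty acids. Many of these genes are known targets of the nuclear receptor PPAR-alpha, which pairs with RXR on a direct repeat with a single base between its copies (DR1).

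In units of 1000000 counts, library totals were 5.53 to 8.31 for sham, 11.2 to 15.4 for UUO and 7.75 to 11.5 for UUO_Si. In 4 libraries (sham 3, UUO 5 and 6, UUO_Si 6) counts were found in 56.9% to 88.0% of 1456 olfactory and vomeronasal receptor genes, against 6.94% to 11.4% in the other 11. UUO 5, UUO 6 and UUO_Si 6 also carry sample codes of other series (RM6 and RM7) than the rest of their groups. Of the markers of the tubule, 12 of 13 proximal tubule genes were lower in UUO than in sham at an adjusted p under 0.05 (the quasi-likelihood F test of edgeR, p-values adjusted by Benjamini-Hochberg over every gene tested), with a median log2 fold change of -3.72. Their summed level was 14250 to 17220 CPM (counts per 1000000 of the scaled library size) in sham and 1031 to 1777 CPM in UUO and 813 to 2078 CPM in UUO_Si. As a sum the markers were thus found in all groups. Single markers could be very low, such as Slc22a30 with a mean of 0.46 CPM in UUO and 0.35 CPM in UUO_Si. Loop of Henle and distal tubule markers were lower in UUO in 6 of 7 (median log2 fold change -2.58). Collecting duct markers were lower in 5 of 6 (median -1.58). Macrophage and fibroblast markers were higher in UUO, 7 of 7 in each list. Over all genes tested, 26.4% were called lower and 27.5% higher.

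Obstructed kidneys on normal diet had less RNA for nearly the whole set. Of the 40 genes, 39 fell in UUO against sham, none rose, by edgeR or by DESeq2, and 1 (Acsm3) did not pass the test; 26.4% of all genes tested were called lower and 27.5% higher. The median log2 fold change of the 40 was -1.35, against -0.04 over all genes. In 38 of the 40, every UUO library lay under every sham library, which held for 22.3% of all genes. A fall of more than 2-fold was seen for 26 of the 40, against 12.9% of all genes. In whole kidney, fewer tubule cells and less RNA per cell cannot be told apart, and the median fall of the proximal tubule markers was larger than the fall of any of the 40; its part in these values was not tested.

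**Figure D1:**
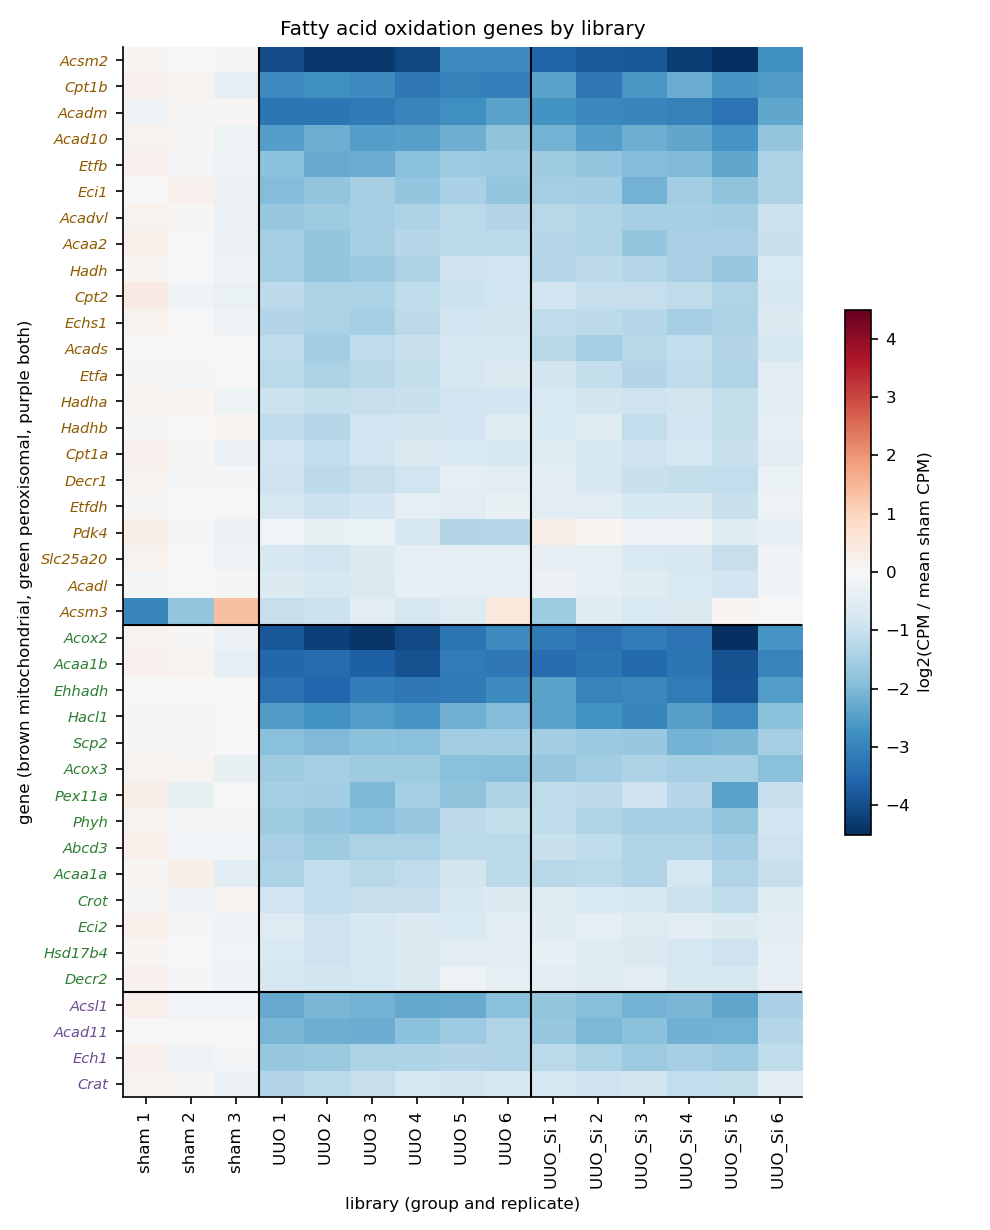
Heat map of the 40 genes (rows, sorted by fold change within mitochondrial, peroxisomal and mixed genes) in the 15 libraries (columns); colour is log2 of CPM over the mean sham CPM of the gene, blue for lower and red for higher. The 12 obstructed libraries are blue for nearly every gene, Acsm3 varies within sham, and UUO 5, UUO 6 and UUO_Si 6 are paler than the rest of their groups for most genes.

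Peroxisomal genes had the larger median fall. All 14 fell, with a median log2 fold change of -1.55 and a range of -3.65 to -0.59, while 21 of 22 mitochondrial genes fell, with a median of -1.10 and a range of -3.59 to -0.42. The 4 genes of more than one compartment fell with a median of -1.66. A fall of more than 2-fold was seen for 10 of the 14 peroxisomal, 13 of the 22 mitochondrial and 3 of the 4 mixed genes. The 2 ranges overlap over nearly their whole length, and the compartments were compared as a description, with no test. The 22 mitochondrial genes include Acsm3 (-0.42), which was not called, and Pdk4 (-0.60), which is a switch and not an oxidation enzyme. Neither was left out of these medians or of the library means below.

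The same order was present in every obstructed library. The mean log2 level of the mitochondrial genes, set against the sham mean, was -1.34 ± 0.196 in UUO (SD, n = 6), and that of the peroxisomal genes was -1.76 ± 0.177 (SD, n = 6). The peroxisomal minus mitochondrial difference was -0.419 ± 0.054 (SD, n = 6), from -0.493 to -0.348, and the 3 sham libraries lay between -0.1 and 0.102. In UUO_Si it was -0.376 ± 0.107 (SD, n = 6), from -0.53 to -0.244. All 12 obstructed libraries therefore lay under all 3 sham libraries in this difference, while the 2 diets overlapped. On the same scale the proximal tubule markers stood at -3.83 ± 0.533 in UUO and -3.88 ± 0.614 in UUO_Si (SD, n = 6 each). UUO 5, UUO 6 and UUO_Si 6 had the highest marker levels of their groups (-3.25, -3.06 and -2.88). The same libraries had the highest mitochondrial means (-1.16, -1.06 and -0.87) and the highest peroxisomal means (-1.575, -1.503 and -1.345).

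**Figure D2:**
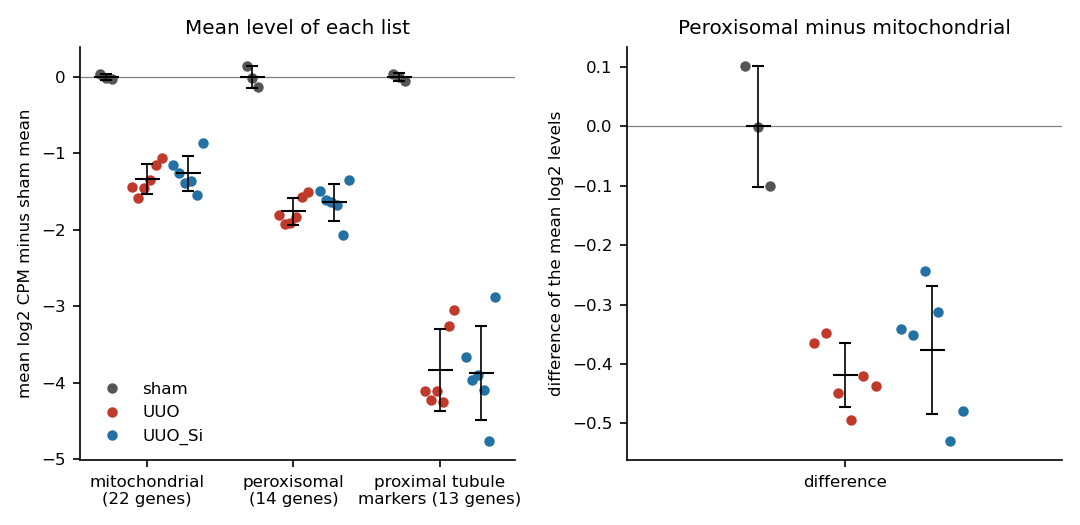
Left, mean log2 CPM of the mitochondrial genes, the peroxisomal genes and the proximal tubule markers in each library, as a difference from the sham mean; right, the peroxisomal minus the mitochondrial value. Points are libraries, bars the mean and SD; every obstructed library lies under every sham library in each list, and the difference between compartments is negative in all 12.

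The carnitine shuttle brings long chains into mitochondria, and its 4 genes fell, with a median log2 fold change of -0.99. Cpt1a, the outer-membrane palmitoyltransferase of kidney and liver that sets the rate of entry, was at 468, 428 and 342 CPM in the sham libraries. In UUO it was at 189 to 262 CPM (median 239) and in UUO_Si at 205 to 295 CPM (median 246). Every obstructed library was under every sham library, and Cpt1a fell in UUO by 0.82 ± 0.13 (log2, SE; adjusted p = 4.53e-05, edgeR quasi-likelihood test). Cpt1b, the isoform best known from muscle, was far lower in level, at 35.2, 34.0 and 22.4 CPM in sham and 3.29 to 4.47 CPM in UUO (median 3.99). It fell by 2.95 ± 0.185 on the log2 scale, or 7.74-fold (adjusted p = 1.26e-09, edgeR), so the minor isoform had the larger fall. Summed levels of smooth and striated muscle markers were 488 to 884 CPM in sham and 500 to 840 CPM in UUO, with Ckm at no more than 1 count per library on average. Their part in Cpt1b was not tested. Slc25a20, the carnitine-acylcarnitine carrier of the inner membrane, was among the members that moved least. It was at 41.1, 37.4 and 33.0 CPM in sham and at 19.8 to 28.0 CPM in UUO (median 25.8), a fall of 0.58 ± 0.165 with no overlap (adjusted p = 0.00708, edgeR).

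Acyl-CoA dehydrogenases carry out the first step of each mitochondrial round, each on its own chain lengths, and 5 of 5 fell, from -2.94 to -0.53 on the log2 scale. Acadm, the medium-chain enzyme, was at 821, 954 and 955 CPM in sham. It was at 94.5 to 172 CPM in UUO (median 107) and at 91.7 to 181 CPM in UUO_Si (median 120). The groups were far apart, and Acadm fell by 2.94 ± 0.193 on the log2 scale, or 7.65-fold (adjusted p = 2.03e-09, edgeR). Acadl, the long-chain enzyme, was at 271, 276 and 293 CPM in sham and at 170 to 219 CPM in UUO (median 195). It fell by 0.53 ± 0.128 on the log2 scale, or 1.44-fold (adjusted p = 0.00215, edgeR), the smallest fall that passed the test among the 40. Per kilobase of exon, Acadm had the highest level of the 40 in sham (233 CPM per kb) and Acadl had rank 5 (140). In UUO Acadl had rank 1 (97.0) and Acadm rank 7 (30.4), so the order of the 2 enzymes was turned round in obstructed kidneys. Acadvl, which starts on very long chains, and Acads, which ends on short ones, lay between them at -1.44 ± 0.132 and -1.04 ± 0.158.

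The later steps of the mitochondrial spiral fell as a group within a narrow band, 5 of 5 with a range of -1.39 to -0.91. Hadha, the alpha subunit of the trifunctional protein, was at 366, 350 and 281 CPM in sham and 157 to 184 CPM in UUO (median 169). No library overlapped, and the fall was 0.96 ± 0.114 (adjusted p = 1.73e-06, edgeR). Hadhb, the beta subunit of the same complex, changed by -0.91 ± 0.158, close to Hadha. Decr1, the reductase that mitochondria need for chains with double bonds, was at 114, 95.6 and 97.4 CPM in sham and 45.3 to 76.4 CPM in UUO (median 54.2). It fell by 0.80 ± 0.186 (adjusted p = 0.00158, edgeR), less than Eci1, the isomerase for the same kind of chain, at -1.68 ± 0.146.

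Electrons leave the dehydrogenases through a flavoprotein of 2 subunits and its ubiquinone oxidoreductase, and all 3 genes fell. Etfb, the beta subunit, was at 309, 262 and 240 CPM in sham and 56.1 to 87.4 CPM in UUO (median 74.7). It fell by 1.90 ± 0.175 on the log2 scale, or 3.73-fold (adjusted p = 8.78e-08, edgeR), with no overlap. Etfa, its partner, changed by -1.04 ± 0.179 and Etfdh, the oxidoreductase, by -0.62 ± 0.152. The 3 estimates were not tested against each other.

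Acsm2 and Acsm3 activate medium-chain acids in the matrix. Acsm2 fell and Acsm3 did not pass the test. Acsm2 was at 923, 863 and 840 CPM in sham. In UUO it ranged from 42.9 to 124 CPM (median 53.3), with UUO 5 and 6 at 119 and 124 CPM and the other 4 libraries at 42.9 to 55.1 CPM. It fell by 3.59 ± 0.366 on the log2 scale, or 12.1-fold (adjusted p = 2.95e-07, edgeR), the largest fall among mitochondrial genes. Acsm3 was the lowest member per kilobase in all 3 groups and stood at 0.43, 0.96 and 8.53 CPM in the sham libraries. In UUO it was at 1.61 to 4.55 CPM (median 2.09). Its change of -0.42 ± 0.629 did not pass the test (adjusted p = 0.597, edgeR), and sham 3, one of the 4 libraries with receptor gene counts, held nearly all the sham signal. Without sham 3 the log2 fold change was 1.79 (adjusted p = 0.0187), and without the 4 receptor-gene libraries 1.47 (adjusted p = 0.0323), so the direction for Acsm3 rests on 1 library. Acsm3 shares exon sequence with Eri2 on the opposite strand, and whether the deposited counts keep reads of the pair apart is not known.

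Pdk4 is a kinase that shuts off pyruvate dehydrogenase and so turns the cell from glucose to fatty acids; it is a switch and not an oxidation enzyme. It was at 168, 136 and 115 CPM in sham. The UUO libraries 1 to 6 were at 127, 112, 114, 85.5, 55.7 and 57.8 CPM, with UUO 5 and 6 lowest, the opposite of most members, and with UUO 1 inside the sham range. Its fall of 0.60 ± 0.242 was at the edge of the test (adjusted p = 0.0445, edgeR). The call was lost in 10 of 20 alternatives, and over all 20 the adjusted p ran from 0.0166 to 0.205. Leaving out sham 1, sham 2, UUO 4, UUO 5 or UUO 6 gave adjusted p = 0.205, 0.0857, 0.0768, 0.0768 and 0.0767.

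**Figure D3:**
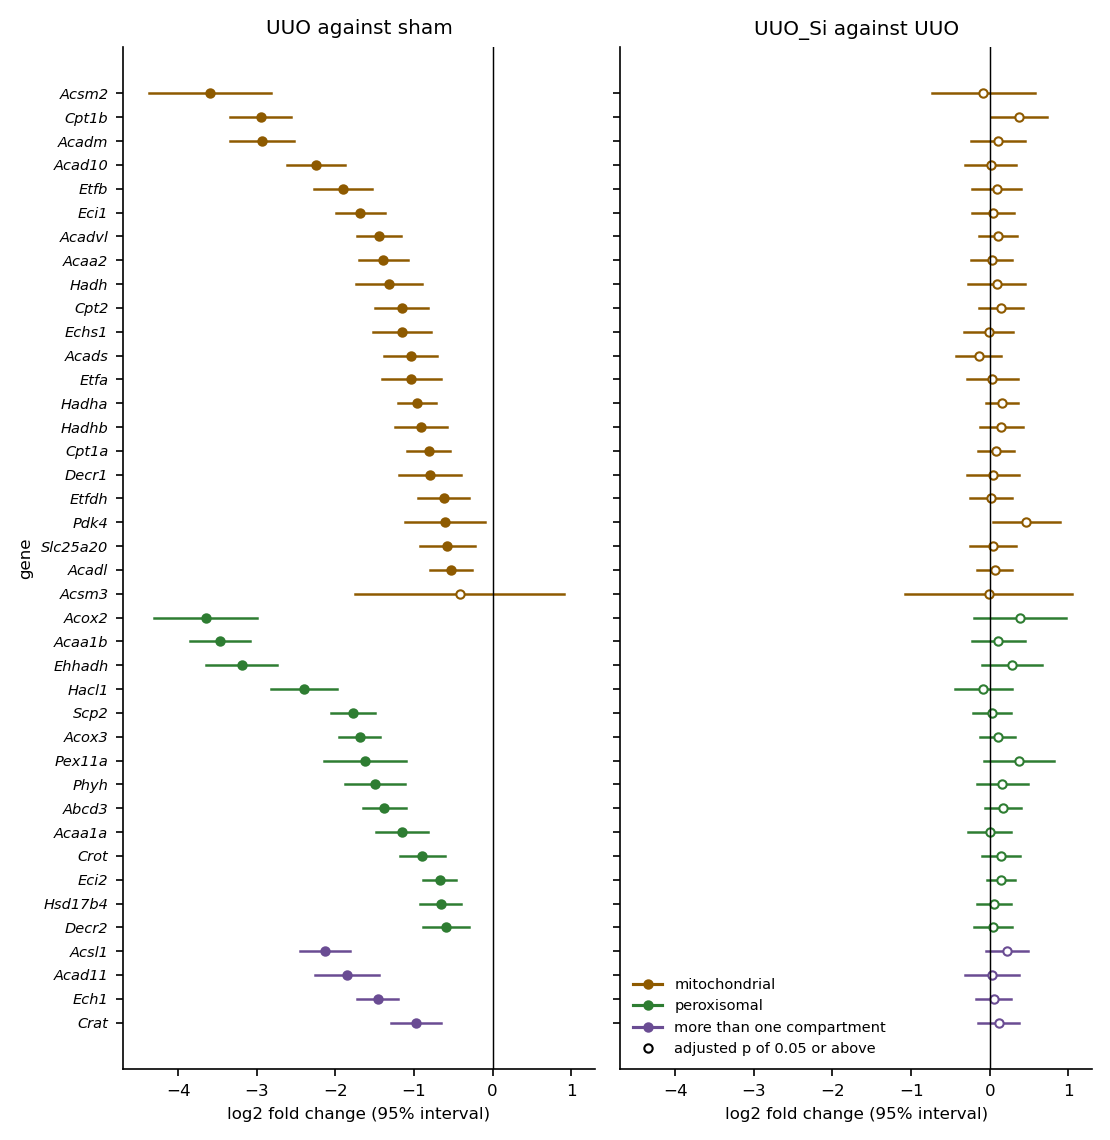
Log2 fold change of each gene with its 95% interval, for UUO against sham (left) and UUO_Si against UUO (right); colour gives the compartment and open circles did not pass an adjusted p of 0.05. On the left 39 of 40 genes are filled and under 0, from -3.65 to -0.53; on the right all 40 are open and lie between -0.14 and 0.47.

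Peroxisomal entry, exit and division were represented by 3 genes, all lower, with a median log2 fold change of -1.38. Abcd3, the membrane carrier for branched and long dicarboxylic substrates, was at 446, 355 and 350 CPM in sham and 128 to 167 CPM in UUO (median 143). It fell by 1.38 ± 0.129 with no overlap (adjusted p = 1.14e-07, edgeR). Pex11a, a membrane protein of peroxisome division, was at 12.6, 8.31 and 10.8 CPM in sham and 2.63 to 4.05 CPM in UUO (median 3.61), a fall of 1.62 ± 0.245 (adjusted p = 2.69e-05, edgeR). Crot, which loads shortened chains onto carnitine for export, changed least of the 3, at -0.89 ± 0.134.

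Both oxidases on the list fell. Acox2, which acts on the branched side chain of bile acid intermediates, had the largest fall of the 40. It was at 93.3, 87.6 and 70.1 CPM in sham and at 4.07 to 11.5 CPM in UUO (median 5.47), a log2 fold change of -3.65 ± 0.309, or 12.6-fold lower (adjusted p = 3.41e-08, edgeR). Acox3, an oxidase for branched chains, was at 179, 176 and 129 CPM in sham and 42.3 to 55.8 CPM in UUO (median 52.9). It fell by 1.69 ± 0.123 (adjusted p = 6.33e-09, edgeR), and UUO 5 and 6 were the lowest of the 6 here, as for Pdk4.

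The later peroxisomal steps held both very large and small falls. Ehhadh, the bifunctional enzyme that handles straight chains and dicarboxylic acids, was at 476, 460 and 469 CPM in sham, close together, and at 39.4 to 66.2 CPM in UUO (median 51.2). It fell by 3.19 ± 0.213 on the log2 scale, or 9.12-fold (adjusted p = 2.51e-09, edgeR). Hsd17b4, the other bifunctional enzyme, which handles branched chains and bile acid intermediates, changed by -0.66 ± 0.124. Per kilobase of exon, Ehhadh had rank 3 of the 40 levels in sham (157 CPM per kb) and Hsd17b4 rank 9 (81.7). In UUO Hsd17b4 had rank 3 (51.6) and Ehhadh rank 16 (17.2), an exchange of order like that of Acadl and Acadm. Scp2, whose long form is the thiolase for branched chains, was at 529, 491 and 514 CPM in sham and 128 to 174 CPM in UUO (median 141), a fall of 1.78 ± 0.132 with no overlap (adjusted p = 7.88e-09, edgeR).

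Acaa1a and Acaa1b are mouse copies of the straight-chain thiolase gene on chromosome 9, and their values diverged. Acaa1b was at 184, 178 and 122 CPM in sham and 10.8 to 18.4 CPM in UUO (median 14.3), an 11.1-fold fall of 3.47 ± 0.181 (adjusted p = 2e-10, edgeR). Acaa1a was at 85.7, 96.1 and 57.8 CPM in sham and 29.9 to 44.9 CPM in UUO (median 35.6), a fall of 1.15 ± 0.155 (adjusted p = 7.86e-06, edgeR). In sham Acaa1b was the higher of the 2 per kilobase (82.3 against 18.1), and in UUO the lower (7.45 against 8.17). These levels use summed exon lengths of 1962 bases for Acaa1b and 4414 for Acaa1a. The longest coding transcripts have 1689 and 1762 bases, so the size of the gap depends on the length used. The order was the same in CPM. In a local alignment, their longest coding transcripts in GENCODE M21 were identical at 1380 of 1428 aligned columns (96.6%), with a longest shared run of 327 bases. Reads may therefore have been split between the copies, and both values are uncertain. Acaa1a also shares exon sequence with Myd88 and Acaa1b with Dlec1, both on the opposite strand. Whether the deposited counts keep those reads apart is not known. In sham 3, both copies were lowest of the 3 sham libraries.

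The stretches just before the RefSeq starts of the pair (GRCm38.p6) are shown because they differ far more than the transcripts do: a global alignment matched 111 of 276 columns (40.2%). Acaa1a is chr9:119341044-119341293 on the plus strand and Acaa1b is chr9:119157094-119157343 on the minus strand, both written 5′ to 3′ along the gene. Capitals mark the 2 longest runs of letters that both hold, each of 8 bases; GATTGGCT contains the inverted form of a CCAAT box.
Acaa1a: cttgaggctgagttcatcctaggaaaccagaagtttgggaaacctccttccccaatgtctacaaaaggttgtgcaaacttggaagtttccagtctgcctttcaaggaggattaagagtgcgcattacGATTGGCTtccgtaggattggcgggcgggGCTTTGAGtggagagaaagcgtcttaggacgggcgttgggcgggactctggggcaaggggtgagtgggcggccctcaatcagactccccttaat
Acaa1b: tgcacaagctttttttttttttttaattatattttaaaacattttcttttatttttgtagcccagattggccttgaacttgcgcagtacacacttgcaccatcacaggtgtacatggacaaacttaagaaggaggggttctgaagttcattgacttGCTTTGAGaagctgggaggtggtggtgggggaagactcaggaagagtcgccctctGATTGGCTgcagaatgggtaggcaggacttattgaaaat
The runs stand in the opposite order in the 2 windows, and no more can be read from matches of this length.

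Auxiliary enzymes for unsaturated chains had the smallest median fall of the peroxisomal roles, at -0.63 on the log2 scale. Eci2, an isomerase, was at 70.6, 58.5 and 53.4 CPM in sham and 31.7 to 42.4 CPM in UUO (median 38.8), a fall of 0.67 ± 0.101 with no overlap (adjusted p = 2.31e-05, edgeR). Decr2, the peroxisomal reductase, was at 39.4, 32.9 and 30.7 CPM in sham and 19.2 to 29.0 CPM in UUO (median 21.1). Its fall of 0.59 ± 0.138 was the smallest among peroxisomal genes (adjusted p = 0.00156, edgeR), and its highest UUO library, UUO 5, lay just under the lowest sham library. In alpha-oxidation, which removes a single carbon from branched chains such as phytanic acid, Phyh was at 169, 144 and 144 CPM in sham and 41.6 to 73.0 CPM in UUO (median 48.8). It fell by 1.49 ± 0.183 (adjusted p = 2.55e-06, edgeR), and Hacl1, the lyase of the next step, fell by 2.40 ± 0.197 (adjusted p = 2.42e-08, edgeR).

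Of the genes in more than one compartment, Acsl1, which activates long chains to their CoA esters, was at 536, 421 and 420 CPM in sham. It was at 93.1 to 126 CPM in UUO (median 100.1) and 90.8 to 166 CPM in UUO_Si (median 116). No library of the groups overlapped with sham, and Acsl1 fell by 2.14 ± 0.15 on the log2 scale in UUO, or 4.40-fold (adjusted p = 4.15e-09, edgeR). Acad11, Ech1 and Crat changed by -1.85 ± 0.19, -1.46 ± 0.122 and -0.98 ± 0.149.

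**Figure D4:**
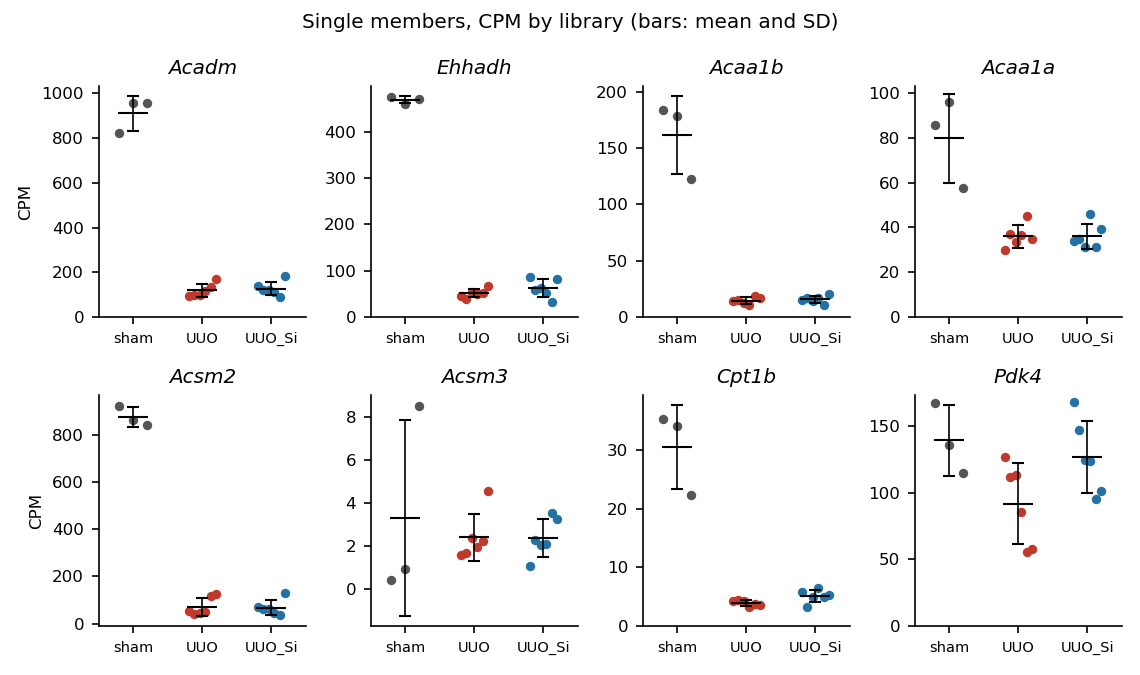
CPM of 8 genes in every library, with the mean and SD of each group (sham n = 3, UUO n = 6, UUO_Si n = 6); each panel has its own axis. Acadm, Ehhadh, Acaa1b, Acsm2 and Cpt1b show no overlap between sham and obstructed libraries; Acsm3 rests on sham 3 at 8.53 CPM, and Pdk4 overlaps between groups.

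Between obstructed kidneys on the Si-based and on the normal diet, no member passed the test. Of the 40, 0 were called in UUO_Si against UUO, and 0% of all genes were called by edgeR's quasi-likelihood test; DESeq2 called 2 genes in the table and none of the 40. At an unadjusted p under 0.05 there were 2 members, Pdk4 and Cpt1b, against 3.74% of all genes, and no member was without overlap between the diets, against 0.203% of all genes. The estimate was above 0 for 34 members and below 0 for 6, with a median log2 fold change of 0.08, against 0.001 over all genes. The medians were 0.05 for mitochondrial and 0.13 for peroxisomal genes. Over the alternatives they ran from -0.04 to 0.12 and from 0.06 to 0.18. UUO 5, UUO 6 and UUO_Si 6, which had the highest means of their groups, are unevenly spread over the diets and are included in the main medians. Since these genes move together from library to library, the count of signs is a description.

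Intervals bound what the diet could have done at this size of group. For Acadm the difference was 0.10 on the log2 scale (95% interval -0.243 to 0.449), against a fall of 2.94 with obstruction. For Acox2 it was 0.38 (-0.205 to 0.974), for Ehhadh 0.28 (-0.101 to 0.669) and for Cpt1a 0.08 (-0.148 to 0.311). A return to the sham level lies outside each of these intervals. Acox2 was at 3.27 to 13.2 CPM in UUO_Si (median 8.81), Ehhadh at 32.04 to 87.33 CPM (median 60.4), Acaa1b at 10.6 to 20.4 CPM (median 15.8) and Acsm2 at 37.7 to 129 CPM (median 63.2). The ranges of the 2 diets overlapped for each, and none of these libraries reached a sham value. The widest was that of Acsm3, from -1.08 to 1.05.

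The members with the smallest p between the diets were Pdk4, Cpt1b, Pex11a, Eci2 and Acsl1, each higher in the mean on the Si-based diet and each with an adjusted p of 0.999 by edgeR. Pdk4 was at 168, 147, 125, 124, 95.5 and 102 CPM in UUO_Si 1 to 6, a difference of 0.47 ± 0.201 (unadjusted p = 0.0336). Its values overlapped those of UUO, and the difference was 0.267 without the libraries of code series RM6 and RM7, which hold the 2 lowest UUO values. Cpt1b was at 3.29 to 6.49 CPM (median 5.11) on the diet, a difference of 0.37 ± 0.168 (unadjusted p = 0.0402). Pex11a was at 2.01 to 5.54 CPM (median 4.70), a difference of 0.37 ± 0.211, with UUO_Si 5 lowest and the other 5 over the highest UUO library. Eci2 was at 40.2 to 45.0 CPM (median 42.1), a difference of 0.14 ± 0.0833, and Acsl1 differed by 0.22 ± 0.128.

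Against sham, obstructed kidneys on the Si-based diet showed falls in 38 of the 40 members and rises in none, where 25.5% of all genes were called lower and 27.2% higher. Acsm3 (-0.43 ± 0.636, adjusted p = 0.591, edgeR) and Pdk4 (-0.14 ± 0.246, adjusted p = 0.658, edgeR) did not pass. No overlap with sham was seen in 37 members, against 21.8% of all genes. The medians were -1.09 for mitochondrial, -1.29 for peroxisomal and -1.62 for mixed genes. This comparison shares its sham libraries with the first and its obstructed libraries with the second, so the values are given side by side. Acsm2, Acaa1b, Acox2 and Ehhadh had log2 fold changes of -3.67, -3.36, -3.26 and -2.90 here, and -3.59, -3.47, -3.65 and -3.19 in UUO.

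Members varied together among the obstructed libraries. UUO 5 or UUO 6 was the highest UUO library for 36 of the 40, and both were above the other 4 for 25 and below them for 2. UUO_Si 6 was the highest of its group for 31 of the 40 and UUO_Si 5 the lowest for 27. The same libraries had the highest and the lowest proximal tubule markers in UUO_Si (-2.88 and -4.77), and the part of the markers in these levels was not tested. Among sham, library 3 was the lowest for 25 of the 40. None of these counts was made over all genes, so whether they are particular to the members was not tested. Without the 4 receptor-gene libraries, 38 members were lower in UUO and 1 (Acsm3) higher, with medians of -1.31 for mitochondrial and -1.66 for peroxisomal genes.

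Other genes of fatty acid metabolism were counted list by list in UUO against sham, where 26.4% of all genes were called lower and 27.5% higher and the median of all genes was -0.04. Of 16 regulators of the pathway, 11 fell and 1 rose, and the median change was -0.97 (log2). Ppara, the receptor itself, fell by 2.84 ± 0.238, and its coactivators Ppargc1a and Lpin1 fell by 2.14 ± 0.121 and 2.43 ± 0.119. Sirt3, a mitochondrial deacetylase, fell by 2.21 ± 0.141 (adjusted p = 1.48e-09, edgeR), while Prkaa1, a catalytic subunit of AMP-activated kinase, rose by 0.70 ± 0.102 (adjusted p = 1.79e-05, edgeR). Prkaa2, the other catalytic subunit, fell by 1.29 ± 0.124 (adjusted p = 1.44e-07, edgeR). It was the higher of the pair in sham, with a mean of 173 CPM against 41.4 CPM for Prkaa1. Of the genes for uptake and binding, 6 of 13 fell and 3 rose: Slc27a2, a fatty acid transporter and very-long-chain acyl-CoA synthetase, fell by 3.32 ± 0.219, Lpl, a lipase of the vessel wall, by 2.34 ± 0.168 and Dbi, an acyl-CoA binding protein, by 1.66 ± 0.209. The acyl-CoA synthetases Acsl4 and Acsl5 rose by 0.80 ± 0.131 and 0.88 ± 0.119, in contrast to Acsl1.

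Acyl-CoA thioesterases, which release free acids from their CoA esters, fell in 9 of 10, with Acot3 at -3.69 ± 0.223, Acot4 at -3.15 ± 0.192 and Acot12 at -2.75 ± 0.143. Ketone body genes fell in 6 of 7, among them Bdh1 (-3.37 ± 0.229) and Oxct1 (-2.07 ± 0.208), while the monocarboxylate carrier Slc16a1 rose by 0.88 ± 0.271 (adjusted p = 0.0109, edgeR), a call that was lost without sham 2. Other peroxisomal enzymes and carriers fell in 15 of 20, including the membrane channel Pxmp2 at -2.92 ± 0.192, and 3 rose. Among the risers were the transporter Abcd2 (1.86 ± 0.371) and Pmp22, a myelin gene that is peroxisomal only in an older use of the name. Peroxisome biogenesis genes fell in 10 of 15, by less: Pex16, which serves membrane assembly, and Pex5, which serves protein import, changed by -1.32 ± 0.151 and -0.84 ± 0.0907.

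Storage and synthesis genes were called in both directions, in shares nearer to those of all genes (26.4% lower, 27.5% higher) than the members were. Of 14 droplet and lipolysis genes 6 fell and 2 rose: Plin2, a coat protein of lipid droplets, rose by 1.11 ± 0.11 (adjusted p = 2.25e-07, edgeR), while Dgat2, which makes triglyceride, and Mgll, which breaks down monoglyceride, fell by 2.29 ± 0.431 and 1.68 ± 0.385. Adipocyte and brown fat markers summed to 30.0 to 43.0 CPM in sham (median 30.7) and 17.1 to 170.5 CPM in UUO (median 22.3). Their part in the droplet genes was not tested. Of 14 synthesis genes 5 fell and 3 rose, shares near those of all genes. Over the alternatives, the genes called higher numbered 1 to 3 in each of these 2 lists, the droplet genes called lower 4 to 7 and the synthesis genes called lower 3 to 7, with 3 without sham 2. A single droplet gene was called higher without any 1 of sham 1, 2 and 3 and UUO 1, 4, 5 and 6, and a single synthesis gene without UUO 1 or UUO 5. Acacb, the mitochondrial acetyl-CoA carboxylase whose product malonyl-CoA blocks Cpt1, fell 4.60-fold, and Mlycd, which removes malonyl-CoA, fell by 1.44 ± 0.146. Scd2, a desaturase, rose by 1.10 ± 0.126. None of these 8 lists had a member called in UUO_Si against UUO; their medians there ran from 0.03 to 0.16.

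Promoters of the members were searched for the DR1 element described above. RefSeq windows (GRCm38.p6) from 250 bases before the start to 50 bases after it were matched for 35 of the 40 genes. The motif was a pair of AGGTCA copies with 1 base between, on both strands, with up to 2 mismatches in the 12 fixed bases. A match was found in 3 of 35 members (8.57%), against 1031 of 27025 promoters of the same length (3.81%). The 3 were mitochondrial (3 of 19, 15.8%) and none of the 13 peroxisomal windows matched. The matches are shown 5′ to 3′ on the strand that reads as the motif, with the repeat copies in capitals. They lie at chr9:108662142-108662154 (Slc25a20, plus strand), chr7:140116492-140116504 (Echs1, minus strand) and chr9:55512308-55512320 (Etfa, plus strand).
Slc25a20: AGGTGAaAGGTCG
Echs1: AGGTCAcGGGTCC
Etfa: AGGGCAaAGGTAA
The 3 genes had log2 fold changes of -0.58, -1.15 and -1.04 in UUO. Ehhadh, Acox2 and Acaa1b had no match in this window, and sequence outside the window was not searched, so elements there would be missed. These letters are a description of the sequence and do not show binding.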

How the data were processed

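Total RNA of mouse kidney was made into libraries with a stranded total RNA kit, per the labels. The authors deposited a table of expected counts per gene symbol, with fractions in part of the values; TopHat2 2.1.1, Cuffdiff 2.2.1 and mm10 stand in the submitters' processing notes, while the role of each, the annotation and the strand setting are not given in the sources used here. Deposited expected counts were rounded. Genes were kept by edgeR's filter at a minimum count of 10, scaled by TMM and fitted for all 15 libraries with edgeR 4.0.16 (R 4.3.3, robust quasi-likelihood test, Benjamini-Hochberg over 16752 genes, called at 0.05). CPM use the scaled sizes, log2 levels a prior count of 2, and the SE is the change over the root of F. CPM per kb use summed exon length of GENCODE M21 (GRCm38), to which 40 members matched. That length can be far longer than a single transcript, so levels and ranks per kb depend on it. Exon sequence is shared with another gene for 15 members, 12 of them with a gene on the opposite strand. Whether the deposited counts keep opposite strands apart is not known, and reads shared on the same strand cannot be told apart. Members were read from the table by symbol.

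The members and lists were chosen with earlier results of these data known. Values in every library were given for the member of highest mean CPM in each role, the 4 largest and 4 smallest changes in UUO, the 5 smallest p in UUO_Si against UUO and the Acaa1 pair; other members are given briefly. In each pathway list up to 3 genes of smallest p were named, and genes that went the other way, Ppara and the genes named beside a listed partner were added after their values were seen. Some genes that met these rules are not reported here. Alternatives were RLE and upper-quartile scaling, no and a stricter filter, removal of Rn45s and haemoglobin genes, DESeq2 1.42.0, limma-voom (limma 3.58.1), only the 2 groups compared, a replicate block, each replicate left out, and the 4 receptor-gene libraries or the RM6 and RM7 libraries left out. The fit was tested on simulated data. Alignments used Biopython 1.88. No pair of libraries was a copy.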

Additional observations from a re-analysis of the deposited data

Results flagged for a closer look

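The levels of each member and the 4 mean measures per library (mitochondrial, peroxisomal, their difference and proximal tubule markers) were looked at for a library far from the rest of its group, in 88 groups of 6 libraries; chance alone gives about 5% of groups, and 4 met the limit. Acsm3 stood at 4.55 CPM in UUO 6, against 1.61 to 2.37 CPM in the other 5 libraries. Echs1 stood at 48.2 CPM in UUO_Si 6, against 26.9 to 34.8 CPM, and Acsm2 at 129 CPM in the same library, against 37.7 to 71.3 CPM. Pex11a stood at 2.01 CPM in UUO_Si 5, against 4.39 to 5.54 CPM. UUO_Si 6 had the highest and UUO_Si 5 the lowest proximal tubule markers of that group, and UUO 6 and UUO_Si 6 are receptor-gene libraries; the part of either in these values was not tested.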

How the results depend on the processing

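The count of members lower in UUO against sham ran from 38 to 39 over 20 alternatives, that in UUO_Si against sham from 37 to 38, and none was called in UUO_Si against UUO in 23. Of 800 single-member values in UUO against sham under an alternative, 787 kept their direction and their side of the threshold, and the 2 members that did not were Acsm3 and Pdk4. Members higher numbered 0 to 1 with a replicate left out, in UUO and in UUO_Si against sham, and 1 in both without the 4 receptor-gene libraries (Acsm3), where the mitochondrial median in UUO was -1.31. Over the alternatives the medians in UUO ran from -1.31 to -1.03 (mitochondrial) and -1.66 to -1.44 (peroxisomal), and in UUO_Si against UUO from -0.04 to 0.12 and 0.06 to 0.18. Acsm3 turned to 1.11 and 1.07 with limma-voom and to 1.47 and 1.66 without the receptor-gene libraries, in UUO and UUO_Si against sham; with a replicate left out it ran from -0.96 to 1.79 and from -0.97 to 1.77. Pdk4 in UUO_Si against sham ran from -0.258 to 0.0162 with a replicate left out and was 0.18 with the replicate block. Slc25a20 in UUO_Si against sham lost its call without sham 1 (-0.46, adjusted p = 0.0681, edgeR). The cause was not tested. With no filter the median of all genes moved to -0.20 in UUO and -0.23 in UUO_Si against sham.

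Replicate numbers did not pair the samples: same-numbered UUO and UUO_Si libraries correlated from -0.39 to 0.754, 1 of 6 best with its own number. With the replicate block 39 members were lower in UUO (medians -1.23 and -1.57), 38 in UUO_Si against sham and 0 were called between the diets (medians 0.05 and 0.12). Sham has 3 libraries of lower depth, which limits low members such as Acsm3, with 54 counts in all of sham.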
